A study of Mus musculus with 7 samples.

Results

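A set of 33 enzymes that make, salvage or interconvert nucleotides were followed in Pax7-GFP cells sorted from hind leg muscle of mice kept in normal or high CO2. The enzymes were chosen by gene symbol from textbook pathways of purine, pyrimidine and deoxynucleotide synthesis. Of these 33, 30 had a row in the deposited table of 23930 genes, and Impdh2, Nme1 and Nme2 were not analysed here. All mice were tamoxifen-induced Pax7-GFP reporter animals, induced at 12 weeks of age and collected at 16 weeks. The strain is read here as C57BL/6, the name on NC1 and in the growth protocol, although the genotype labels of the other libraries carry other numbers after C57BL. The 3 normocapnia libraries (NC1 to NC3) came from mice in room air and 4 hypercapnia libraries (HC1 to HC4) from mice kept for 4 weeks at what the study's methods give as 10% CO2. The reporter carries a CreERT2 behind Pax7 and a floxed stop cassette before a green fluorescent protein, so cells that express Pax7 at induction, and their progeny, are labeled. The study describes collection 3 days after muscle injury with cardiotoxin in both groups, whereas the labels do not mention injury and the table's title gives 40 hours. The labels do not say whether each library was a separate animal. The p-values rest on the spread between these libraries, part of which may be technical.

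Cells that divide need nucleotides for RNA and deoxynucleotides for DNA. Purines are built stepwise on phosphoribosyl pyrophosphate (PRPP) to inosine monophosphate (IMP), which is then turned into AMP or GMP, while the pyrimidine ring is made first and joined to PRPP to give UMP. Salvage enzymes reuse bases and nucleosides, ribonucleotide reductase makes deoxynucleotides, and the reductase subunit Rrm2, thymidylate synthase and thymidine kinase 1 are known for rising when cells enter S phase, as satellite cells do when they leave quiescence after injury.

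The libraries held 14527445 to 23388710 reads, so that 1 read was worth 0.0428 to 0.0688 RPM (reads scaled to a common library total), the unit of all levels given here. Each gene was read by the panel's own amplicon, so a level is compared between libraries and not between genes. The libraries did not carry satellite cell transcripts to the same degree, and the level of the reporter itself is not given here. Pax7 was at 268 RPM in NC1, 8.25 RPM in NC2, 4.34 RPM in NC3 and between 20.1 and 79.5 RPM in hypercapnia. The summed level of 12 satellite cell markers was 604 to 4434 RPM in normocapnia and 813 to 1708 RPM in hypercapnia, and that of 12 macrophage markers was 11799 to 34626 RPM and 19350 to 24059 RPM, with Adgre1 and Ms4a7 called higher and C1qa at 0.452 RPM or less in all libraries. Xist was at 445 to 701 RPM in NC1, NC2, HC1 and HC2 and at or below 0.125 RPM in NC3, HC3 and HC4, a split that runs across both groups. The study used both sexes, and the labels name none. The Y chromosome genes Ddx3y, Eif2s3y and Uty were at 0 in NC1, NC2, HC1 and HC2. They were at 56.5 to 206 RPM in NC3, HC3 and HC4. By these genes and Xist, NC3, HC3 and HC4 are read as male and the other libraries as female. NC3 was thus the only male library of normocapnia, and each group held more than a single animal. In such bulk samples, fewer cells of a type and less RNA per cell cannot be told apart.

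Of the 30 enzymes, 3 rose in hypercapnia, and each sits in a different arm of the pathway. Dck, the deoxycytidine kinase of deoxynucleoside salvage, rose 1.88-fold, Umps, which makes UMP, rose 2.01-fold, and Adk, the kinase that returns adenosine to AMP, rose 2.18-fold. None of the 30 fell. A gene was called when its unadjusted limma p was under 0.05 and its fold change, on the log2(RPM + 1) scale, was above 1.5. The 3 called enzymes are 10% of the 30, where 2.57% of all 23930 genes and 4.75% of the 12504 genes whose mean reached 1 RPM were called, 2.66% as higher and 2.1% as lower. All 30 enzymes had a mean of at least 1 RPM. No enzyme passed Benjamini-Hochberg adjustment over all genes, the lowest adjusted p being 0.915 by limma, which called 0 genes of the table after adjustment while 1114 had an unadjusted p under 0.05. After adjustment edgeR also called 0 genes and DESeq2 called 29, none of them among these enzymes.

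Beyond the called genes, 27 of the 30 enzymes (90%) had a positive log2 fold change, against 62.1% of the genes at 1 RPM or more, and only Prps1, Impdh1 and Uck2 were negative. Their median log2 fold change was 0.56, where that of the genes at 1 RPM or more was 0.16. With median-of-ratios scaling those medians were 0.44 and 0.045, with quantile normalization 0.41 and -0.0064, and under both 26 enzymes were higher, Adss turning negative under the first and Tk2 under the second. The heat map of the enzymes by library shows low values in NC2 and NC3 for most of them, with NC1 nearer to the hypercapnia libraries.

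**Figure D1:**
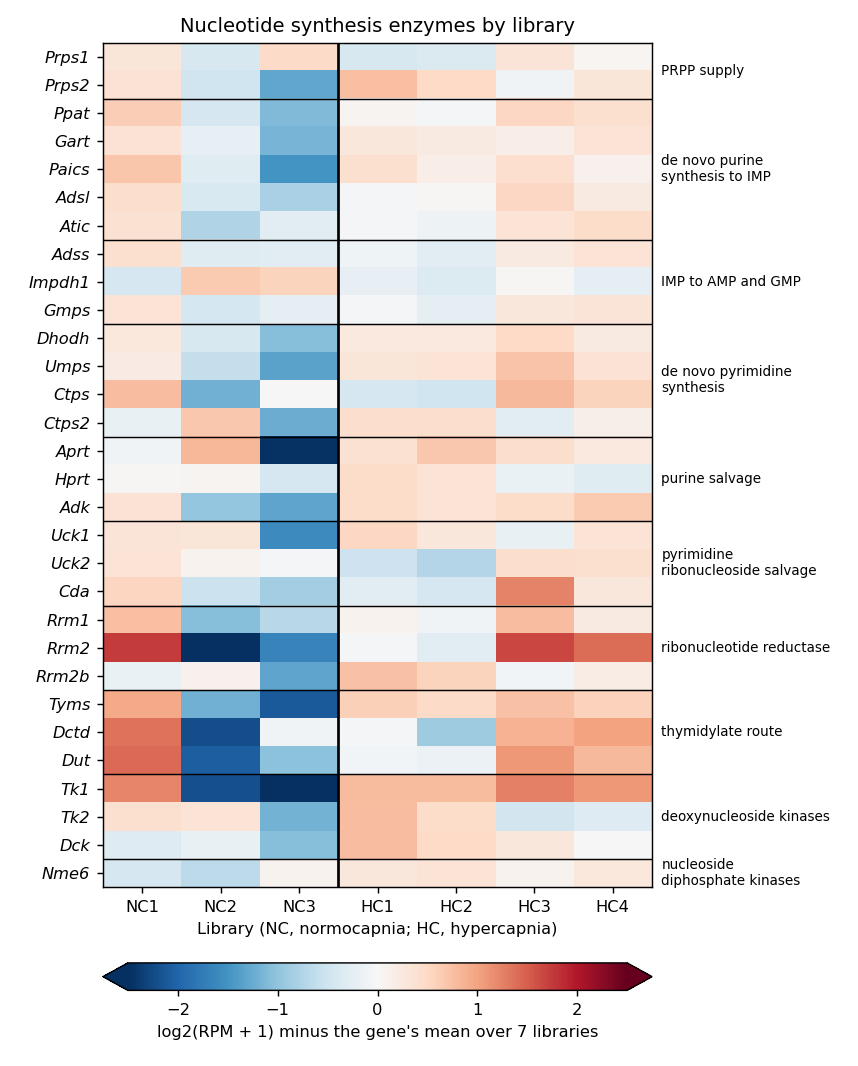
Level of each of the 30 enzymes (rows, grouped by role) in the 7 libraries (columns), as log2(RPM + 1) minus the gene's mean over the libraries, with blue below and red above that mean and colors saturated beyond 2.5. NC1 resembles the hypercapnia libraries for most rows, NC3 is the lowest library of all for 18 rows and NC2 for 9.

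PRPP supply rests on the synthetases Prps1 and Prps2, neither of which was called. Prps2 was at 62.9, 34.2 and 19.3 RPM in NC1, NC2 and NC3 and at 82.7, 69.2, 45.7 and 60.1 RPM in HC1 to HC4. Its highest level was in HC1, but NC1 lay above HC3 and HC4, and the log2 fold change of 0.84 (SE 0.43) did not pass the test (limma p = 0.103, exact permutation p = 0.143, 95% interval -0.23 to 1.92). Prps1 was at 78.1, 47.7 and 88.0 RPM in normocapnia and at 47.5, 49.1, 78.4 and 65.0 RPM in hypercapnia, with overlapping groups and a log2 fold change of -0.23 (SE 0.29). The ratio of Prps2 to Prps1, taken after the values were seen, was 0.219 to 0.806 in normocapnia and 0.583 to 1.74 in hypercapnia.

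The enzymes from PRPP to IMP were all higher on average in hypercapnia, and none of the 5 passed the test. Ppat, the amidotransferase of the first committed step, was at 98.9, 47.8 and 29.2 RPM in normocapnia and 67.0, 62.2, 92.3 and 84.6 RPM in hypercapnia. Gart, which carries 3 activities of the route in a single protein, was at 114.8, 77.6 and 39.5 RPM in normocapnia and in a narrow range of 101.1 to 113.7 RPM in hypercapnia. For both genes NC1 was the highest library of the 7. Paics, a bifunctional carboxylase and synthetase, was at 189.0, 94.7 and 40.5 RPM and at 153.9, 131.3, 155.8 and 126.3 RPM. With all libraries in limma it had the largest difference of these 5, with a log2 fold change of 0.64 (SE 0.51, limma p = 0.26, exact permutation p = 0.314, 95% interval -0.64 to 1.93), but Gart was above it by edgeR and DESeq2, and without NC3 Paics was at 0.076, the smallest of the 5. Adsl, the lyase that also acts on the way to AMP, ran from 39.7 to 96.1 RPM in normocapnia and from 69.4 to 101.2 RPM in hypercapnia. Atic, which closes the purine ring, was at 197.2, 89.6 and 124.7 RPM and at 149.2, 138.9, 192.9 and 208.1 RPM. Ppat and Paics kept close to each other, their ratio moving 1.66-fold from the lowest to the highest library.

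The branch from IMP showed no called gene and the smallest group median, a log2 fold change of 0.11. Adss, the first enzyme toward AMP, was at 243.3, 149.3 and 152.4 RPM in normocapnia and 172.3, 151.0, 216.4 and 236.0 RPM in hypercapnia, and Gmps, the last toward GMP, was at 116.5, 67.7 and 78.3 RPM and at 89.4, 77.1, 112.5 and 115.2 RPM. Impdh1, an IMP dehydrogenase and the first enzyme toward GMP, had the opposite sign. Its levels were 36.0, 77.3 and 71.8 RPM in normocapnia and 42.1, 38.3, 49.7 and 40.8 RPM in hypercapnia, so that NC2 and NC3 lay above all hypercapnia libraries and NC1 below them. The log2 fold change was -0.45 (SE 0.29, limma p = 0.171, exact permutation p = 0.257, 95% interval -1.17 to 0.27), and without NC1 it was -0.79 and passed the test.

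In the pyrimidine route Umps rose. This bifunctional enzyme joins orotate to PRPP and decarboxylates the product to UMP. It was at 26.3 RPM in NC1, 14.8 RPM in NC2 and 8.40 RPM in NC3, and at 28.4, 28.9, 38.0 and 29.5 RPM in HC1 to HC4, so that the groups did not overlap although NC1 came within a few RPM of HC1. The means were 16.5 ± 9.06 RPM (SD, n = 3) and 31.2 ± 4.55 RPM (SD, n = 4). The log2 fold change was 1.004 (SE 0.37, 95% interval 0.081 to 1.93), with limma p = 0.0378 and an exact two-sided permutation p of 0.0286, the smallest that 3 against 4 libraries allow. Umps and Dck were the only enzymes of the 30 with groups fully apart (6.67%), where 4.09% of the genes at 1 RPM or more stood apart with hypercapnia higher. Within the libraries with Xist, Umps was at 26.3 and 14.8 RPM against 28.4 and 28.9 RPM, and in those without it at 8.40 RPM against 38.0 and 29.5 RPM.

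Dhodh, the mitochondrial dehydrogenase that makes orotate for Umps, was at 15.7, 9.58 and 5.71 RPM in normocapnia and 15.7, 15.5, 18.9 and 15.5 RPM in hypercapnia. NC1 was level with the hypercapnia libraries, and the log2 fold change of 0.71 (SE 0.31) did not pass the test (limma p = 0.0669, exact permutation p = 0.114), although Dhodh was called with median-of-ratios scaling and by DESeq2. The CTP synthetases, which aminate UTP, did not follow Umps. Ctps was at 86.2, 21.0 and 49.1 RPM in normocapnia and 36.9, 35.2, 87.7 and 73.9 RPM in hypercapnia, and Ctps2 at 40.7, 74.5 and 19.0 RPM and at 63.2, 63.5, 38.2 and 51.2 RPM. Among the 4 hypercapnia libraries, Ctps was higher in HC3 and HC4 and Ctps2 in HC1 and HC2.

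Among the purine salvage enzymes Adk rose. Its levels were 140.7, 55.0 and 43.3 RPM in normocapnia and 150.7, 138.8, 150.9 and 173.6 RPM in hypercapnia. NC1 lay above HC2, so the groups overlapped by this pair, and the means were 79.7 ± 53.2 RPM (SD, n = 3) and 153 ± 14.6 RPM (SD, n = 4). The log2 fold change was 1.13 (SE 0.41, 95% interval 0.089 to 2.16), with limma p = 0.038 and an exact two-sided permutation p of 0.0571. Aprt, which salvages adenine, was at 125.6, 239.4 and 23.2 RPM in normocapnia and 157.6 to 213.7 RPM in hypercapnia. NC3 stood far below the other libraries, and the log2 fold change of 1.01 had a standard error of 0.79. Hprt, which salvages hypoxanthine and guanine, was at 95.9, 98.0 and 69.4 RPM and at 128.2, 118.0, 83.7 and 75.6 RPM, and within each group the libraries with Xist were the higher ones.

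The pyrimidine ribonucleoside kinases and the cytidine deaminase Cda held no called gene. Uck1, a uridine and cytidine kinase, was at 39.5, 38.7 and 9.71 RPM in normocapnia and 44.9, 38.0, 27.2 and 40.02 RPM in hypercapnia. On the log2(RPM + 1) scale it had the largest difference of these 3, a log2 fold change of 0.56 (SE 0.53, limma p = 0.34, exact permutation p = 0.486, 95% interval -0.78 to 1.89), and without NC3, the lowest library, the log2 fold change was -0.078. Uck2, the second such kinase, was at 179, 151 and 139 RPM and at 98.3, 85.2, 192 and 186 RPM, with HC1 and HC2 below and HC3 and HC4 above all normocapnia libraries. The summed level of 6 endothelial markers split in the same way, at 214, 97.4 and 87.9 RPM in normocapnia and 58.6, 45.0, 500.01 and 384 RPM in hypercapnia, and that of 6 fibro-adipogenic markers was 1767, 1289 and 1034 RPM and 1035, 935, 1825 and 2230 RPM. Their part in the level of Uck2 was not tested. Cda was near the limit of detection, with no read in NC3 and 0.257 to 3.31 RPM in the others, where 3 reads correspond to 0.207 RPM in NC3. With a pseudocount of 0.1 RPM the log2 fold change was 1.41 for Cda and 0.59 for Uck1, and edgeR and DESeq2 also placed Cda above Uck1.

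Ribonucleotide reductase consists of the large subunit Rrm1 and either Rrm2 or the p53-inducible Rrm2b. Rrm2 was at 536 RPM in NC1, 21.3 RPM in NC2 and 49.7 RPM in NC3, and at 156, 133, 507 and 424 RPM in HC1 to HC4. NC1 was the highest library and NC2 and NC3 were the lowest, and the log2 fold change of 1.62 (SE 1.23) had a 95% interval of -1.45 to 4.68 (limma p = 0.24, exact permutation p = 0.371). It was 2.95 without NC1 and called, 0.65 without NC2, and 0.73 by edgeR and 0.69 by DESeq2. Rrm1 followed with a smaller range, at 99.4, 27.5 and 35.7 RPM and at 61.8, 55.1, 100.5 and 68.6 RPM. Rrm2b followed neither, at 9.86, 12.1 and 3.92 RPM in normocapnia and 19.2, 16.9, 10.6 and 12.9 RPM in hypercapnia, with a log2 fold change of 0.81 (SE 0.40, limma p = 0.0939, exact permutation p = 0.0857). The ratio of Rrm2 to Rrm2b, taken after the values were seen, moved 30.9-fold across the libraries, while that of Rrm2 to the S and G2 phase cyclin Ccna2 moved 1.57-fold. Ccna2 is 1 of 10 proliferation markers in the table, and not all kept as close to Rrm2. Birc5, Mcm3, Mcm5 and Mcm6 were, like Ccna2 and Rrm2, higher in NC3 than in NC2. Mki67, Top2a, Cdk1, Mcm2 and Aurkb were lower there, Mki67 at 10.9 RPM in NC2 and 0.413 RPM in NC3.

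On the thymidylate route, Tyms makes dTMP from dUMP, and Dctd and Dut supply that dUMP from dCMP and dUTP. Tyms was at 56.7, 12.2 and 5.99 RPM in normocapnia and within 41.0 to 48.8 RPM in hypercapnia. NC1 lay above and NC2 and NC3 below all hypercapnia libraries, and the log2 fold change was 1.38 (SE 0.72, limma p = 0.109, exact permutation p = 0.143, 95% interval -0.42 to 3.18). It was 2.24 without NC1 and called, and 0.72 without NC3. Dut was at 165, 13.9 and 29.5 RPM and at 57.7, 55.0, 129.6 and 107.8 RPM. Dctd was at 51.8, 3.46 and 18.6 RPM and at 19.1, 10.2, 36.5 and 40.6 RPM. In both, NC1 was the highest and NC2 the lowest library.

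The deoxynucleoside kinases salvage the same products. Dck, which phosphorylates deoxycytidine and both purine deoxynucleosides, rose and had the smallest limma p of the 30 enzymes on RPM, whereas edgeR and DESeq2 gave smaller p-values for Umps and Adk. It was at 29.2, 32.3 and 17.0 RPM in normocapnia and 63.1, 52.5, 44.5 and 36.7 RPM in hypercapnia, with groups apart. The means were 26.2 ± 8.07 RPM (SD, n = 3) and 49.2 ± 11.3 RPM (SD, n = 4), the log2 fold change was 0.91 (SE 0.29, 95% interval 0.19 to 1.62), limma p was 0.0216 and the exact two-sided permutation p was 0.0286. Its order over the libraries was unlike that of the S phase enzymes, with HC1 and HC2 the highest and NC1 between NC2 and NC3. Among the 12 macrophage markers, Adgre1 had this pattern too. It was at 109.01, 149 and 70.5 RPM in normocapnia and at 392, 429, 151 and 184 RPM in hypercapnia. Ms4a7 was also highest in HC1 and HC2, but within normocapnia it was highest in NC3, where Dck was lowest. Csf1r, Lyz2 and Itgam had negative log2 fold changes and the other 9 markers positive ones. The summed level of the 12 was highest in NC3, at 34626 RPM. The part of macrophages in the level of Dck was not tested. The ratio of Dck to Rrm2 moved 27.8-fold. Within the libraries with Xist, Dck was at 29.2 and 32.3 RPM against 63.1 and 52.5 RPM, and in those without it at 17.0 RPM against 44.5 and 36.7 RPM.

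Tk1, the cytosolic thymidine kinase of S phase, had a log2 fold change of 2.29 and did not pass the test with all genes in the fit. It was called when genes under a mean of 1 RPM were left out and after quantile normalization. It was at 32.2 RPM in NC1, 2.10 RPM in NC2 and 0.826 RPM in NC3, where 12 reads were counted, and at 23.5, 23.7, 32.9 and 29.2 RPM in hypercapnia. NC1 lay among the hypercapnia libraries, so the standard error was 1.03 and the 95% interval -0.29 to 4.88 (limma p = 0.072, exact permutation p = 0.114). Tk2, its mitochondrial counterpart, was at 4.91, 4.66 and 0.964 RPM and at 6.68, 5.12, 2.25 and 2.57 RPM. Of the nucleoside diphosphate kinases, which exchange the last phosphate between nucleotides, Nme6 was the only one of the 3 listed here with a row. It was at 8.25, 6.88 and 12.2 RPM in normocapnia and 14.1, 14.6, 12.1 and 13.9 RPM in hypercapnia, with NC3 just above HC3. Its log2 fold change of 0.57 (SE 0.19, 95% interval 0.11 to 1.03) had limma p = 0.0243 and an exact two-sided permutation p of 0.0571, but at 1.48-fold it stayed under the threshold and was not called, whereas with a pseudocount of 0.1 RPM its log2 fold change was 0.62 and it was called.

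**Figure D2:**
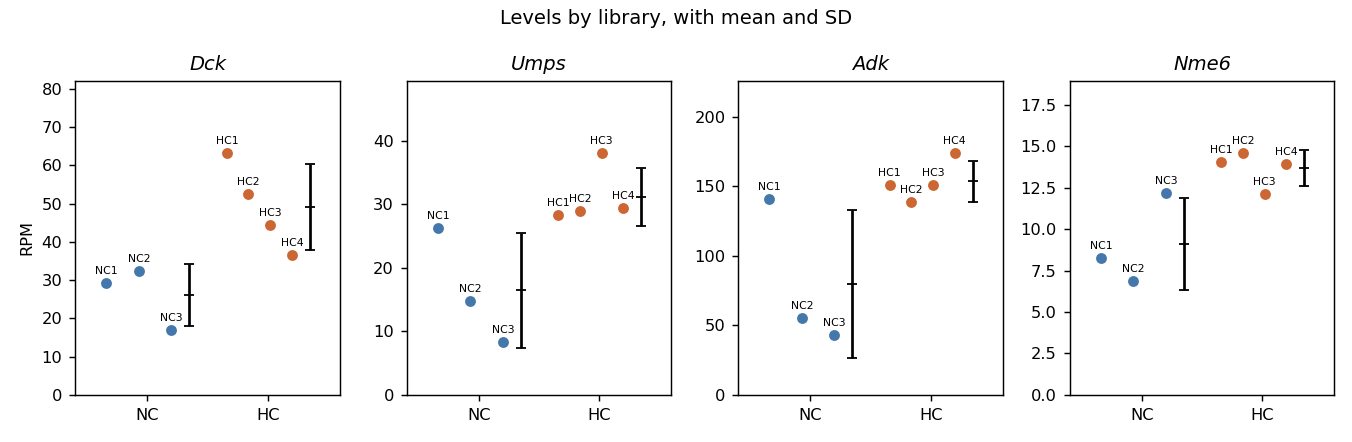
Level in RPM of Dck, Umps, Adk and Nme6 in each library (points, labeled), with normocapnia (NC, n = 3) and hypercapnia (HC, n = 4) side by side and bars for the mean and SD. The hypercapnia points of Dck and Umps all lie above the normocapnia points, whereas NC1 reaches the hypercapnia range for Adk and NC3 does for Nme6.

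Levels of proliferation genes are given beside those of the S phase enzymes. Of 12 proliferation markers, 10 were in the table, all with a positive log2 fold change and none called, with a median of 1.46. Their summed level was 1179, 192 and 253 RPM in normocapnia and 724, 658, 1077 and 833 RPM in hypercapnia, and none was at 0, although Mki67 was at 0.413 RPM in NC3. The summed level of the 3 thymidylate enzymes had the same order within normocapnia, at 274, 29.5 and 54.0 RPM, and was 106 to 215 RPM in hypercapnia. Pax7 was highest in NC1 and next highest in HC3 and HC4, as Rrm2 was, but Pax7 was lowest in NC3 and Rrm2 in NC2. The part of the cell mixture in the level of any enzyme was not tested.

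**Figure D3:**
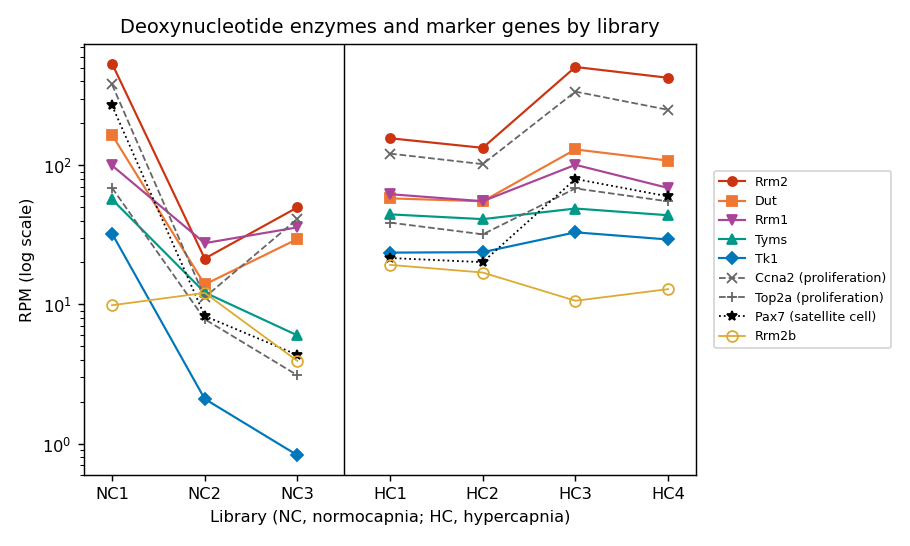
Level in RPM, on a log axis, of 6 deoxynucleotide enzymes, the proliferation genes Ccna2 and Top2a and the satellite cell gene Pax7 in each library. Lines only join the libraries of a group for reading. Rrm2 and Ccna2 run side by side from 536 and 379 RPM in NC1 to 21.3 and 11.2 RPM in NC2, while Rrm2b stays between 3.92 and 19.2 RPM.

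Normocapnia was the more variable group for 27 of the 30 enzymes (90%), on the log2(RPM + 1) scale, as it was for 78.1% of the genes at 1 RPM or more. The highest normocapnia library was 3.25 times the lowest for the median enzyme, and 1.56 times in hypercapnia. The ratio within normocapnia was 39.0 for Tk1, 25.1 for Rrm2, 15.0 for Dctd, 11.9 for Dut, 10.3 for Aprt and 9.47 for Tyms. NC3 was the lowest normocapnia library for 19 enzymes (63.3%), against 57.3% of the genes at 1 RPM or more, and NC1 was the highest for 22.

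Which enzymes passed the test rested on single libraries. Without NC1, 16 enzymes were called, where 15.4% of the genes at 1 RPM or more were. Of these, 15 were higher (50%, against 11.6%), namely Prps2, Ppat, Gart, Paics, Adsl, Atic, Dhodh, Umps, Adk, Rrm1, Rrm2, Tyms, Dut, Tk1 and Dck, and Impdh1 was lower. The groups then stood apart for 17 enzymes, where they did for 29.0% of the genes at 1 RPM or more, and after quantile normalization with all libraries they did for 4, against 8.05%. Without NC3 the calls were Dck and Nme6 (4.65% of genes), 24 enzymes were higher, and the median log2 fold change was 0.27 against -0.067 for the genes at 1 RPM or more. Without NC2 only Dck was called (9.37%), as it was without HC1 (2.89%) and without HC4 (3.66%). Without HC3, Dck and Nme6 were called (4.36%), and without HC2 none was (2.82%), Dck then having a log2 fold change of 0.87. Without NC3 the log2 fold change of Umps was 0.62 and that of Adk 0.79, and neither passed the test. Without NC2 they were 0.998 and 0.96, and without single hypercapnia libraries 0.91 to 1.05 and 1.07 to 1.17, again with neither called.

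The same 3 enzymes were called by tests on counts. On whole reads, edgeR called Umps, Adk and Dck (6.03% of the genes it tested), and DESeq2 called these and Dhodh (6.07%). With the presence of Xist as a covariate, a fit chosen after the data were seen, Prps2, Umps, Adk, Rrm2b and Dck were called, where 9.42% of the genes at 1 RPM or more were. With the replicate number as a block, Prps2, Rrm2b and Dck were called (4.65%), although the numbers did not pair the libraries.

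**Figure D4:**
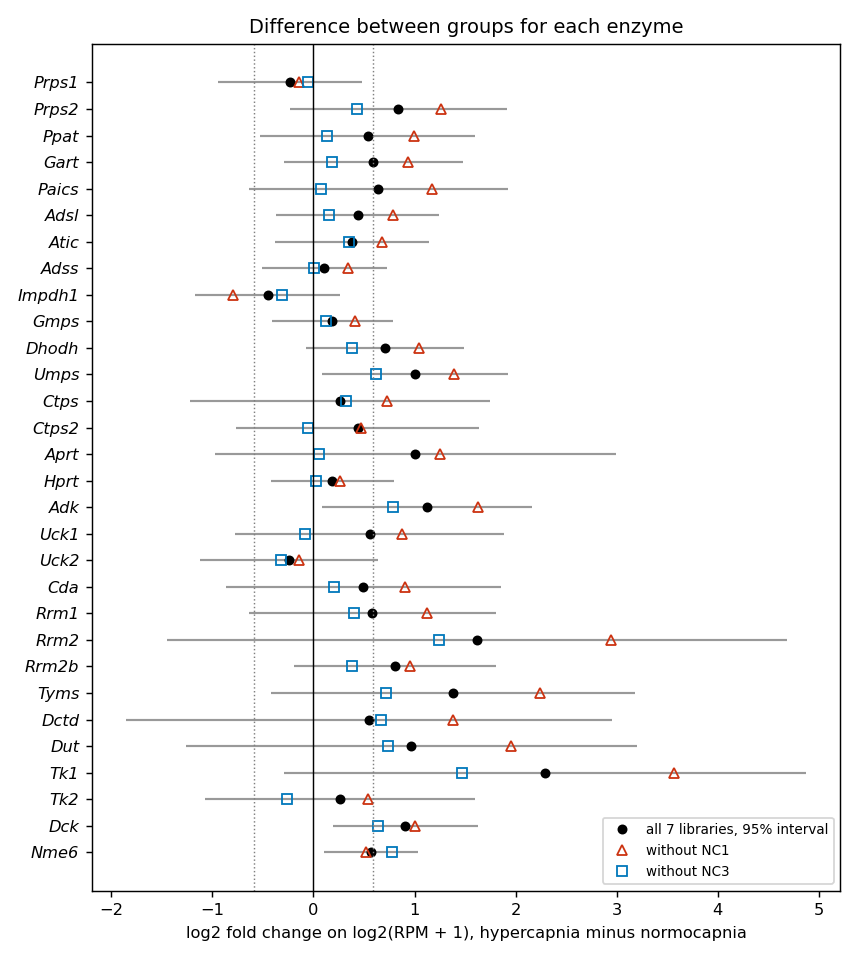
Log2 fold change of each enzyme on the log2(RPM + 1) scale, hypercapnia minus normocapnia, with all 7 libraries (black, with the 95% limma interval), without NC1 (red triangles) and without NC3 (blue squares). Dotted lines mark 1.5-fold. Leaving out NC1 moves most enzymes to the right, Tk1 from 2.29 to 3.56, and leaving out NC3 moves most toward 0, Paics from 0.64 to 0.076.

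Sequences upstream of the genes were read from RefSeq's promoter table of the mouse build GRCm38.p6, which held 28 of the 30 enzymes, in windows of 250 bases before to 50 after each start. Letters of the E2F core, here TTNNCGC with C or G at each N, on either strand, stood in the windows of 8 of the 28 (28.6%) and of 10.9% of all 27025 genes. E2F factors are known regulators of S phase genes. The 8 were Prps1, Prps2, Ppat, Atic, Adss, Ctps, Rrm1 and Rrm2. Of the enzymes named above for rising in S phase, Rrm2 was thus among them and Tyms and Tk1 were not. The E-box CACGTG stood in 3 (10.7%, against 8.09%), namely Paics, Atic and Tyms, and CCAAT in 11 (39.3%, against 41.1%). A match is a run of letters and not a measured binding site. The 250 bases before the start are shown for both reductase subunits and Tyms, as enzymes of DNA synthesis, for the called genes Umps and Dck, and for Ppat, with matches in capitals. The third called gene, Adk, has more than one start in the table and is not shown, and CCAAT stood in its windows.
Rrm2 (chr12:24708004-24708253, plus strand): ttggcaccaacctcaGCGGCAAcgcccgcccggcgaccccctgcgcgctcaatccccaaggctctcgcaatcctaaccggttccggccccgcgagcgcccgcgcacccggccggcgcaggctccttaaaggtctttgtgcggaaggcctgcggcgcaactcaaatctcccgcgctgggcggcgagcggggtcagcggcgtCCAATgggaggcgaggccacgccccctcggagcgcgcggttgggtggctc
Rrm1 (chr7:102441445-102441694, plus strand): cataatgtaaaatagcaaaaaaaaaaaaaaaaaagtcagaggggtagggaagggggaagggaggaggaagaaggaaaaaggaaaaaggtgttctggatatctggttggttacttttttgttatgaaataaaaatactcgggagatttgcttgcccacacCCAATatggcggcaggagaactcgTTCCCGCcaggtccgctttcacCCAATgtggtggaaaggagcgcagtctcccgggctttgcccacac
Tyms (chr5:30073626-30073875, minus strand): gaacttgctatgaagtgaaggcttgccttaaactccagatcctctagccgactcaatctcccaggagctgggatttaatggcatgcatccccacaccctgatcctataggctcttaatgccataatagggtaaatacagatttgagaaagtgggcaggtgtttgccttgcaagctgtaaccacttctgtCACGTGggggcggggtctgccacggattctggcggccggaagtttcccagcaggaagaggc
Umps (chr16:33967039-33967288, minus strand): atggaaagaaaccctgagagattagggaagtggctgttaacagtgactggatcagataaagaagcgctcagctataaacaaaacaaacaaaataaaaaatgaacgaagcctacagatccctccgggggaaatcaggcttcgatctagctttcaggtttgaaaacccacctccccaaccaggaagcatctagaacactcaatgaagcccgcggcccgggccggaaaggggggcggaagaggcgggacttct
Dck (chr5:88764763-88765012, plus strand): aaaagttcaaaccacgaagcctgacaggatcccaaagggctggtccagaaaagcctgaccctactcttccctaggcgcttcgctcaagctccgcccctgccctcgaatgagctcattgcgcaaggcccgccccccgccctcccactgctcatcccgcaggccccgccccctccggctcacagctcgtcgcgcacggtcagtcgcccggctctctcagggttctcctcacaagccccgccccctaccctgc
Ppat (chr5:76951579-76951828, minus strand): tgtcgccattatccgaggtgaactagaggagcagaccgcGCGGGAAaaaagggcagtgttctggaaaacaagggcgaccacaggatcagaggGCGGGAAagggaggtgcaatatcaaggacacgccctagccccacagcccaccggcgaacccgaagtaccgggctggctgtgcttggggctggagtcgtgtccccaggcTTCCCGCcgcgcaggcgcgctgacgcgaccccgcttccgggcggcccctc

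Rrm2 held an E2F core 235 to 229 bases before its start and CCAAT 50 to 46 bases before it. Rrm1 held an E2F core at 67 to 61 bases and CCAAT at 91 to 87 and at 45 to 41 bases. Tyms held the E-box at 61 to 56 bases, and Ppat held 3 E2F cores, at 211 to 205, 158 to 152 and 50 to 44 bases. Dck and Umps held none of these letters in the stretch shown, unlike Adk with its CCAAT. Ppat and Paics lie on opposite strands of chromosome 5 with starts 276 bases apart, at 76951578 and 76951302, so that their 5′ ends overlap, and where the panel's amplicons lie is not given in the sources used here.

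Of 60 other genes of nucleotide metabolism, 57 were in the table and 2 were called, both higher, where 2.57% of all genes and 4.75% of those at 1 RPM or more were called. Their median log2 fold change, over those at 1 RPM or more, was 0.38, against 0.16 for all genes at that level. Cmpk2, a mitochondrial UMP and CMP kinase that is also an interferon-stimulated gene, was at 21.5, 16.2 and 29.4 RPM in normocapnia and 65.2, 71.2, 49.7 and 34.4 RPM in hypercapnia, with a log2 fold change of 1.25 (SE 0.32, limma p = 0.00953, exact permutation p = 0.0571). Slc29a3, a nucleoside transporter of lysosomes, was at 97.5, 139 and 155 RPM and at 215, 266, 170 and 171 RPM, with a log2 fold change of 0.65 (SE 0.24, limma p = 0.0351, exact permutation p = 0.0286). For both the groups were apart.

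None of the 5 remaining de novo genes was called, 4 of them with a positive sign. Cad, whose product carries the first 3 steps of the pyrimidine route ahead of Dhodh and Umps, was at 32.1, 21.0 and 8.26 RPM in normocapnia and 22.3, 28.6, 38.7 and 32.0 RPM in hypercapnia. Among 11 genes of folate one-carbon supply, which feeds purine and thymidylate synthesis, 10 had a positive sign and none was called, with a median of 0.74. Of 15 further nucleotide kinases in the table, 10 were positive and Cmpk2 was called. None of 20 genes of nucleotide breakdown and deoxynucleotide control was called, and of 6 nucleoside transporters Slc29a3 was.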

How the data were processed

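RNA of the sorted cells was made into Ion AmpliSeq mouse transcriptome libraries. The authors deposited a table of RPM per gene and library. The submitters' processing notes name the Transcriptome Analysis Console, and the aligner is not given in the sources used here, nor is the genome build. Whole reads were recovered from the RPM steps, and 100% of values were whole within 0.05 reads. Groups were taken from the labels. log2(RPM + 1) was fitted over all 23930 genes with limma 3.58.1 in R 4.3.3, with no filter on low genes, and calls used the thresholds of the study (unadjusted p under 0.05, fold above 1.5). A single gene was also tested by an exact two-sided permutation over the 35 splits. edgeR 4.0.16 and DESeq2 1.42.0 were run on the whole reads as alternatives, and the fits were tested on simulated data. Statistics are given for enzymes that were called, had groups apart or had the largest change of their role, and beyond this rule for Prps1, Dhodh, Aprt and Rrm2b, and gene ratios were chosen after their values were seen. The enzymes and the gene lists were chosen with earlier results of these data known.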

Additional observations from a re-analysis of the deposited data

Results flagged for a closer look

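Within hypercapnia, HC3 stood apart from the other libraries for 2 of the 30 enzymes, the neighbors Dhodh and Umps of the pyrimidine route. For Dhodh, HC3 was at 18.9 RPM and the others at 15.5 to 15.7 RPM, and the gap made up 0.952 of the group's range. For Umps, HC3 was at 38.0 RPM and the others at 28.4 to 29.5 RPM, a gap of 0.888 of the range. Both exceed Dixon's 95% critical value for 4 libraries, which chance passes in about 1 of 20 groups, and 30 genes were examined. Without HC3 the log2 fold change of Umps was 0.91 and did not pass the test. The 3 normocapnia libraries are too few for this test.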

How the results depend on the processing

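Counts of enzymes moved with the libraries more than with the method. Leaving out 1 library gave 0 to 16 called enzymes, 24 to 27 with a positive sign, 2 to 17 with groups apart and 376 to 1990 called genes, the upper ends without NC1. By other methods, 5 enzymes were called with the Xist covariate, 4 had groups apart after quantile normalization, and called genes over the table numbered 1049 by edgeR without a filter, 1304 by DESeq2 and 1210 with the Xist covariate, against 615. Of the 11 enzymes with full statistics by rule, only Uck1 changed sign, to -0.078 without NC3, its values without 1 library running from there to 0.88. Among the others, Adss, Ctps and Dctd turned negative without NC2, Ctps2 and Tk2 without NC3, Adss also by DESeq2 and median-of-ratios scaling and Tk2 after quantile normalization. Over the 18 alternatives Dck lost its call in 1 and Umps and Adk in 7 each, of which 6 left out a library and 1 was the block. Same-numbered libraries deviated with correlations of -0.35, 0.50 and -0.044, so the numbers did not pair them. With the replicate block Umps had a log2 fold change of 1.03 and Adk of 1.07, both no longer called, and 3 enzymes and 598 genes were called. Gained calls included Dhodh by DESeq2, with median-of-ratios scaling and without NC1, Tk1 with low genes left out, after quantile normalization and without NC1, and Nme6 with a pseudocount of 0.1 RPM, without NC3 and without HC3. Nme6 had an unadjusted p of 0.374 by edgeR and 0.442 by DESeq2. Tk1 had the largest log2 fold change of the 30 by limma on log2(RPM + 1) with all libraries, but with a pseudocount of 5 RPM it was 1.48 and that of Rrm2 1.52. Read depth limits Cda, Tk2 and Tk1 in NC3, where 0, 14 and 12 reads were counted.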
